A study of Mus musculus with 6 samples.

Results

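A set of 10 genes known as targets of the p53 family was followed, none of them chosen for a role in cell cycle arrest: Gdf15, Eda2r, Perp, Shisa5, Ei24, Aen, Zmat3, Trp53inp1, Phlda3 and Ccng1. The estimated counts of all transcripts of each gene were summed in each library. The genes were taken by name, with earlier results of these data known. These are 10 of 35856 genes with a sequence in the files, and 9 of them were among the 15933 genes with enough counts to be tested. Perp, the remaining member, had 1 estimated count over all 6 libraries. The study asked what the loss of Mdm2 does to RNA levels in cells that lack p53, and measured total RNA from mouse cells after ribosomal RNA depletion in 6 libraries.

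All 6 libraries were labelled as cells of Mdm2fl/fl p53-/- mice, so by label the EtOH arm also lacks p53 and carries floxed Mdm2. The 4OHT arm held 3 libraries labelled Mdm2 deleted, and the EtOH arm held 3 libraries given the ethanol vehicle. In each arm 1 library was labelled fibroblasts (adult ear punches), 1 lymphoma (a T-cell lymphoma in short-term culture) and 1 sarcoma (also in short-term culture). Exposure to 4-hydroxytamoxifen (4-OHT) or ethanol lasted 48 h for fibroblasts and sarcoma and 6 h for lymphoma. The cells had received a retrovirus carrying CreERT2, a Cre recombinase switched on by 4-OHT, together with GFP, or one carrying GFP alone, and the labels do not say which of these each library had. A library of cells with GFP alone and 4-OHT is not among the labels, so Mdm2 deletion and drug exposure cannot be told apart. With 1 library per label and arm, the 3 labels served as the replicates of an arm. The labels do not state separate cultures beyond these names. All p-values therefore measure the spread between libraries, which may be technical.

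p53, p63 and p73 are related transcription factors that bind the same paired half-site in DNA, and Mdm2 is the ubiquitin ligase that keeps p53 low. Besides arrest genes such as Cdkn1a, the family switches on genes for secreted and surface proteins, for membrane proteins of the endoplasmic reticulum, for nucleases and RNA-binding proteins, and for regulators of Akt and of Mdm2. Most of these genes also have other inputs, among them the stress factors Atf4, Ddit3 and Atf3, and their RNA can be made in cells without p53.

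Total estimated counts lay between 26243064 and 37517726 per library, and a count of 0 allows up to 3 counts, or 0.0797 to 0.113 CPM (counts scaled to library size, with TMM factors), per library. Intervals and such floors cover counting error only. Mdm2 RNA did not go with the labels: it averaged 30.9 ± 0.342 CPM in the 4OHT libraries and 28.3 ± 0.246 CPM in the EtOH libraries (SD, n = 3 each; edgeR adjusted p = 0.0539). The counts cover the whole coding sequence and cannot single out a deleted exon. The lymphoma label was not borne out either: 9 of 10 T cell markers never reached 1 CPM in any library, those labelled lymphoma included. Of these, Cd3d, Cd3e, Cd247 and Cd2 had 0 counts in all 6 libraries. Lck was the exception, with 1.89 to 4.12 CPM over the 6 libraries. Of 8 fibroblast markers, 7 were tested and were detected in every library, and Lum, with 38 counts in all, was not tested. No list of sarcoma markers was used. Libraries are therefore named by their labels only. Trp53 averaged 25.7 ± 2.41 CPM in 4OHT and 24.4 ± 2.29 CPM in EtOH libraries (adjusted p = 0.414). It was detected in every library, at 22.3 to 28.5 CPM, so its RNA level does not by itself bear out the p53-/- label. As for Mdm2, the counts cannot single out a deleted exon. Trp73 had 0 counts. Trp63 had 2, 8 and 11 counts in the 4OHT libraries labelled fibroblasts, lymphoma and sarcoma, the first under the floor, against 28, 30 and 62 counts in EtOH. It passed the count filter through the EtOH libraries alone, so no fold is given.

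Of the 9 tested members, 6 rose in the 4OHT libraries (Gdf15, Shisa5, Eda2r, Aen, Trp53inp1 and Zmat3), 1 fell (Ccng1) and 2 did not pass the test (Phlda3 and Ei24). The test was edgeR's quasi-likelihood test with the cell label as a block and Benjamini-Hochberg adjustment over all 15933 genes at 0.05. It called 49.6% of all tested genes, 25.0% higher and 24.6% lower. As alternatives, DESeq2 called 5 members higher and 0 lower, and 15.9% of all tested genes higher and 15.6% lower. Limma on log2(TPM + 1) called 4 members higher and 0 lower, and 13.9% of all tested genes higher and 9.28% lower. By edgeR the same 6 members lay above the EtOH range in every 4OHT library and Ccng1 lay below it, where 27.7% and 27.8% of all tested genes did so. The median log2 fold change was 0.83 over the 9 tested members and 0.02 over all tested genes. Of the members, 4 were called higher with at least a 2-fold change, Gdf15, Shisa5, Eda2r and Aen, and 4.77% of all tested genes were. The list was made with earlier results of these data known, so these shares are not a test of the set. Every tested member had at least 18 counts in each library, so none entered through 1 arm alone. In bulk RNA, fewer cells of a type and less RNA per cell cannot be told apart.

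**Figure D1:**
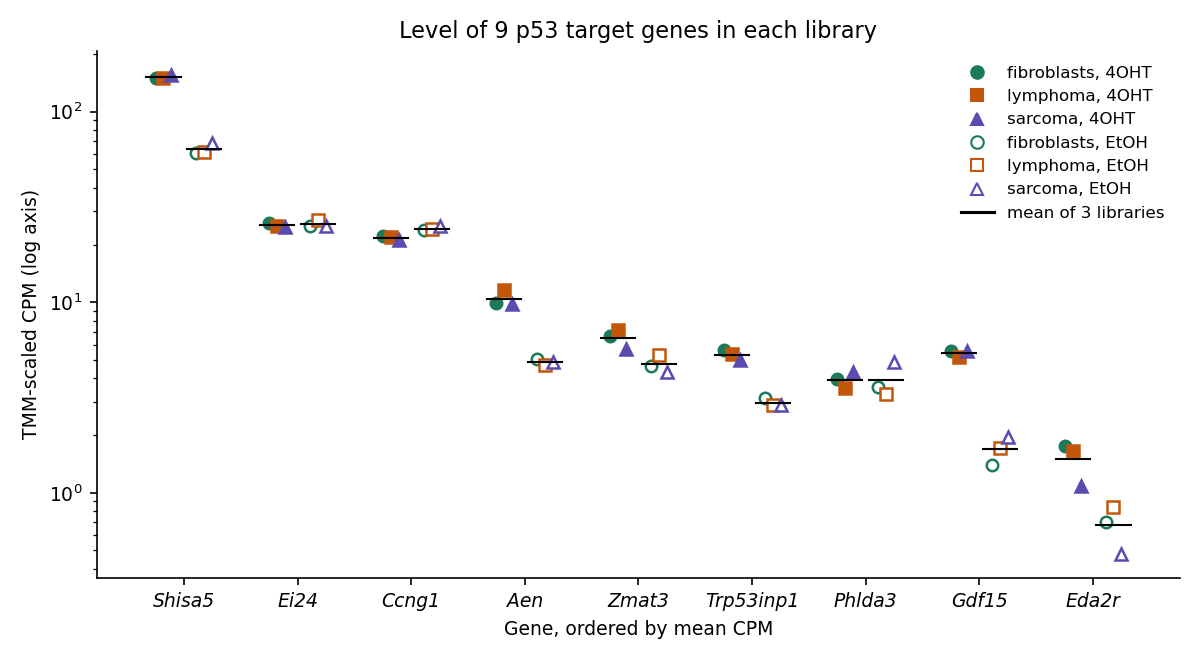
TMM-scaled CPM (log axis) of the 9 tested members in each library, with filled symbols for 4OHT libraries left of open symbols for EtOH libraries, a symbol shape for each cell label and a line at the mean of the 3 libraries. The arms separate for 7 of the 9 genes and overlap for Phlda3 and Ei24; Perp, with 1 count in all, is not drawn.

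Gdf15 showed the largest fold change of the members. It encodes a secreted member of the TGF-beta superfamily that acts on the brainstem receptor Gfral. The gene lies at chr8:70629393-70632456 on the minus strand (GRCm38). In the 4OHT libraries labelled fibroblasts, lymphoma and sarcoma it had 5.56, 5.15 and 5.53 CPM, against 1.40, 1.72 and 1.96 CPM in the EtOH libraries. All 4OHT values stood above all EtOH values, and the EtOH values differed among themselves by more than the 4OHT values did. The means were 5.41 ± 0.230 CPM in 4OHT and 1.70 ± 0.281 CPM in EtOH (SD, n = 3 each), a fold of 3.17 (log2 fold change 1.66 ± 0.14, SE; edgeR adjusted p = 1.71e-06). Within the labelled pairs the CPM ratio of 4OHT over EtOH was 3.96 for fibroblasts (95% counting interval 2.79 to 5.75), 2.99 for lymphoma (2.15 to 4.21) and 2.81 for sarcoma (2.12 to 3.76). The intervals of the 3 pairs overlap, the 6 h pair included.

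The genes tied to Gdf15 were read from the same test. Its receptor Gfral had 0 counts in all 6 libraries. The stress-response transcription factors that drive Gdf15 in other settings rose with it: Atf3 averaged 10.7 ± 0.549 CPM in 4OHT and 3.27 ± 0.281 CPM in EtOH (log2 fold change 1.71 ± 0.09, adjusted p = 5.04e-08). The immediate early factor Egr1 averaged 6.89 ± 1.73 CPM in 4OHT and 2.39 ± 0.208 CPM in EtOH (1.53 ± 0.12, adjusted p = 1.32e-06). Ddit3, which encodes the stress factor Chop, averaged 44.0 ± 1.56 CPM in 4OHT and 19.1 ± 1.03 CPM in EtOH (1.21 ± 0.06, adjusted p = 9.06e-09). Atf4 rose by less: it averaged 739 ± 10.7 CPM in 4OHT and 558 ± 29.7 CPM in EtOH (0.41 ± 0.04, adjusted p = 1.62e-05). The part of these factors in the Gdf15 difference was not tested.

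Eda2r, also called Xedar, encodes a receptor of the TNF receptor superfamily that binds the A2 form of ectodysplasin. It lies at chrX:97333840-97377216 on the minus strand. The gene was scarce: the libraries labelled fibroblasts, lymphoma and sarcoma held 52, 44 and 30 counts in 4OHT and 20, 25 and 18 counts in EtOH. That came to 1.76, 1.65 and 1.08 CPM in 4OHT, against 0.702, 0.844 and 0.478 CPM in EtOH. The lowest 4OHT value, in the library labelled sarcoma, was still above the highest EtOH value, in the library labelled lymphoma. Means were 1.5 ± 0.365 CPM in 4OHT and 0.675 ± 0.185 CPM in EtOH, 2.22-fold (log2 fold change 1.15 ± 0.22, adjusted p = 0.00102). Pair ratios were 2.51 for fibroblasts (1.47 to 4.44), 1.96 for lymphoma (1.17 to 3.34) and 2.27 for sarcoma (1.22 to 4.32). At these counts the intervals are wide, but each lies above 1. RNA of its ligand gene Eda averaged 1.51 ± 0.0473 CPM in 4OHT and 1.48 ± 0.262 CPM in EtOH and did not pass the test (0.02 ± 0.18, adjusted p = 0.923). The adaptor Traf6 did not pass either, with 11.9 ± 0.280 CPM in 4OHT and 10.5 ± 0.676 CPM in EtOH (adjusted p = 0.0609).

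Perp encodes a membrane protein of desmosomes in stratified epithelia and is a known target of p63 there. It lies at chr10:18845020-18857073 on the plus strand. Its only count fell in the 4OHT library labelled fibroblasts, and no fold is given, since both arms were at or under the floor of 3 counts per library. The basal keratin Krt5, which marks the cells in which Perp is usually studied, also had 0 counts in all 6 libraries, and Krt14 had 3 counts. The simple-epithelium keratins moved differently: Krt18 averaged 21.7 ± 0.964 CPM in 4OHT and 8.71 ± 0.359 CPM in EtOH (log2 fold change 1.32 ± 0.06, adjusted p = 1.48e-08). Among non-keratin epithelial markers, Epcam averaged 0.455 ± 0.0426 CPM in 4OHT and 0.464 ± 0.162 CPM in EtOH and did not pass the test. Epcam met the count filter in 1 arm only. Cdh1, with 10 counts in all, was not tested. It had 0.0376 to 0.181 CPM in the 4OHT libraries and 0 to 0.0266 CPM in the EtOH libraries. Among desmosome genes, Jup fell to 16.1 ± 1.13 CPM in 4OHT, against 22.0 ± 2.18 CPM in EtOH (-0.45 ± 0.07, adjusted p = 0.000266), Dsp did not pass (1.52 ± 0.123 CPM in 4OHT and 1.36 ± 0.118 CPM in EtOH, adjusted p = 0.498) and Pkp1 had 4 counts in all.

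Shisa5, also known as Scotin, encodes a membrane protein of the endoplasmic reticulum and nuclear envelope that promotes cell death when overproduced. It lies at chr9:109038565-109057777 on the plus strand. It was the most abundant member, with 46.7% to 66.8% of the summed CPM of all 10 genes in a library. The 4OHT libraries labelled fibroblasts, lymphoma and sarcoma had 151, 150.2 and 156 CPM, against 60.9, 61.3 and 68.4 CPM in the EtOH libraries. The 3 libraries of an arm lay close together and the arms were far apart. Means were 152 ± 3.46 CPM in 4OHT and 63.5 ± 4.25 CPM in EtOH, 2.40-fold (log2 fold change 1.26 ± 0.04, adjusted p = 6.68e-10). With 1734 to 4437 counts behind each value the pair ratios were tight, at 2.47 for fibroblasts (2.34 to 2.62), 2.45 for lymphoma (2.32 to 2.59) and 2.28 for sarcoma (2.18 to 2.40). Scotin is also known as interferon-inducible in human cells. Here 8 of 8 interferon markers rose, a list chosen with earlier results known, and 25.0% of all tested genes were called higher. The markers had a summed level of 2338 to 2416 CPM in 4OHT and 153 to 162 CPM in EtOH libraries. Of these, the antiviral effector genes Mx1, Rsad2, Oas2, Ifit3 and Ifit1 rose by 5.25, 4.94, 4.83, 4.61 and 3.91 on the log2 scale and the transcription factor gene Irf7 by 3.31. The part of interferon signalling in the Shisa5 difference was not tested.

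The Shisa5 signal did not change evenly over its transcripts. The 2 full-length transcripts start at the upstream end of the gene and encode 235 and 236 residues. A short transcript starts 16298 bases farther downstream, at base 109054863 of chromosome 9, and encodes 132 residues. Its counts amounted to 80.0, 75.7 and 82.3 CPM in the 4OHT libraries labelled fibroblasts, lymphoma and sarcoma, against 19.0, 16.4 and 21.4 CPM in the EtOH libraries. The full-length pair together amounted to 69.4, 71.7 and 72.9 CPM in 4OHT, against 41.1, 44.5 and 46.2 CPM in EtOH. Both were higher in every 4OHT library, the short one by 4.21, 4.62 and 3.85 times in the pairs labelled fibroblasts, lymphoma and sarcoma and the full-length ones by 1.69, 1.61 and 1.58 times. The short transcript took 52.1 ± 1.44% of the Shisa5 counts in 4OHT libraries and 29.7 ± 2.57% in EtOH libraries (SD, n = 3 each). Per length, the TPM of the short transcript was 2.59 ± 0.120 times that of the full-length pair in 4OHT and 1.01 ± 0.131 times in EtOH. These transcripts were singled out after their values were seen, so no test is given. The short coding sequence shares 391 of its 396 bases with the full-length one of 235 residues and has 5 of its own, while the full-length one has 314 of its own, so the split rests on the likelihood model of kallisto.

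**Figure D2:**
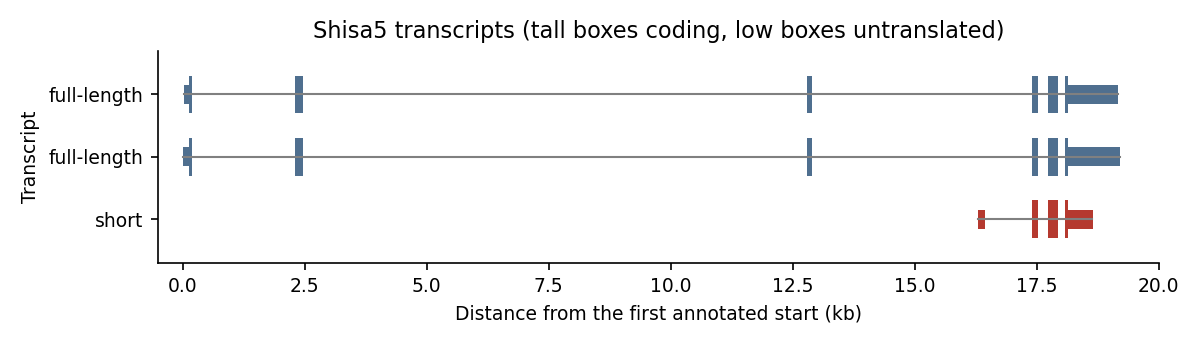
Exon models of 3 Shisa5 transcripts in GENCODE M21, drawn to scale along the distance in kilobases from the first annotated start, with tall boxes for coding and low boxes for untranslated parts. The short transcript starts 16298 bases downstream and its later exons coincide with those of the full-length models.

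**Figure D3:**
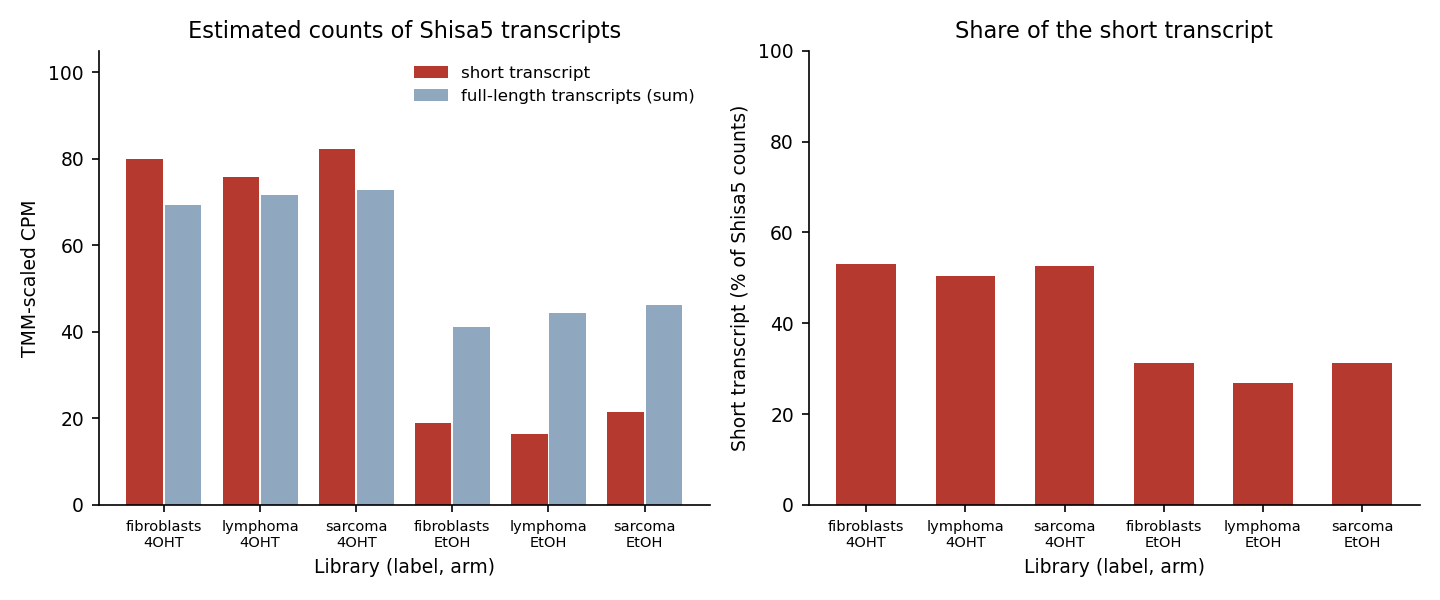
Left, TMM-scaled CPM of the short transcript and of the summed full-length transcripts in each library; right, the short transcript as a percentage of all Shisa5 counts, with 4OHT libraries left of EtOH libraries and 1 bar per library. The short transcript holds 50.4% to 53.1% of counts in the 4OHT libraries and 26.8% to 31.3% in the EtOH libraries.

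Sequence at the starts of the full-length and the short Shisa5 transcripts is shown because these transcripts differed in how much they changed. Both windows are from RefSeq (GRCm38.p6, plus strand), run from 250 bases before the annotated start to 50 bases from it, and show matched motifs in capitals. The upstream window is chr9:109038317-109038616 and the downstream one, around the start of the short transcript, is chr9:109054616-109054915.
Shisa5 upstream start: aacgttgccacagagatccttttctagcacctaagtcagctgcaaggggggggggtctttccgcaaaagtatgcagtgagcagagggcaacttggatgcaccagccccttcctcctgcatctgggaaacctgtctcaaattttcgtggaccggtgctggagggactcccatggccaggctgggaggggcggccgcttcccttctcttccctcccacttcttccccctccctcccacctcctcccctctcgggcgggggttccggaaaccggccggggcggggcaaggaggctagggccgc
Shisa5 downstream start: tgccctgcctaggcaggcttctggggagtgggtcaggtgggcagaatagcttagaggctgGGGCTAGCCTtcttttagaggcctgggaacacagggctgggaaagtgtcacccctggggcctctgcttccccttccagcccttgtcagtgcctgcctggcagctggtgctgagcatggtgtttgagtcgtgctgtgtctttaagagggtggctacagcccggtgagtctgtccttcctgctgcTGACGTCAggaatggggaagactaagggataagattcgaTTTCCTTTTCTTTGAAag
Both strands were searched for the interferon element core (GAAA, any 2 bases, GAAA), the STAT element TTCNNNGAA, the cyclic AMP element TGACGTCA, the Atf4 composite element TGATGNAA and the p53 half-site. The upstream window held none of them. Positions count the RefSeq start base as 0, which in the downstream window is base 109054866. The GENCODE start of the short transcript is base 109054863. The downstream window held the interferon core on the minus strand (TTTCCTTTTC, bases 32 to 41), overlapping a STAT element (TTCTTTGAA, bases 39 to 47). It also held a cyclic AMP element from base -7 to 0 and a p53 half-site (GGGCTAGCCT, bases -190 to -181). RefSeq has further Shisa5 start windows between these, which are not shown. The window chr9:109052604-109052903 held a p53 half-site (GAACAAGTCT, bases -136 to -127), and the others between held none of the motifs. Of all 32851 RefSeq windows of this length, 3.44% held the interferon core, 8.30% the STAT element, 1.79% the cyclic AMP element, 3.97% the Atf4 element and 8.36% the half-site. These motifs were chosen after the downstream window had been seen. A match is a description, not a site of binding or a cause, and a window without one says only that these letters are not in it.

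Ei24, the other endoplasmic reticulum member, encodes a membrane protein needed for autophagy. It lies at chr9:36779159-36797393 on the minus strand. Its levels were 25.95, 25.1 and 25.0 CPM in the 4OHT libraries labelled fibroblasts, lymphoma and sarcoma, against 25.1, 27.0 and 25.1 CPM in the EtOH libraries. The arms overlapped, with the highest value in the EtOH library labelled lymphoma. Means were 25.4 ± 0.528 CPM in 4OHT and 25.7 ± 1.09 CPM in EtOH (log2 fold change -0.02 ± 0.06, adjusted p = 0.771). The pair ratios from counts were 1.03 (0.932 to 1.15), 0.931 (0.839 to 1.03) and 0.993 (0.899 to 1.10) for fibroblasts, lymphoma and sarcoma, and each interval spans 1. On deposited TPM the log2 ratios were 0.52, -0.58 and -0.26, and a target of 99 bases carried 24.9% to 72.6% of the Ei24 TPM. The autophagy receptor Sqstm1, a partner in the same process, rose to 437 ± 12.6 CPM in 4OHT, against 287 ± 9.74 CPM in EtOH (0.61 ± 0.05, adjusted p = 6.88e-07). The other listed autophagy genes did not rise: Tfeb (-0.33 ± 0.07, adjusted p = 0.00323) and Gabarap (-0.18 ± 0.04, adjusted p = 0.00405) fell, and Map1lc3b did not pass (-0.07 ± 0.04, adjusted p = 0.216).

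Aen encodes a nuclear exonuclease that takes part in p53-driven apoptosis. The gene lies at chr7:78895854-78911209 on the plus strand. It had 9.94, 11.6 and 9.79 CPM in the 4OHT libraries labelled fibroblasts, lymphoma and sarcoma, against 5.02, 4.66 and 4.86 CPM in the EtOH libraries. All 4OHT values lay well above the narrow EtOH range, and the library labelled lymphoma was the highest. Means were 10.4 ± 0.990 CPM in 4OHT and 4.85 ± 0.182 CPM in EtOH, 2.14-fold (log2 fold change 1.10 ± 0.09, adjusted p = 2.40e-06). Pair ratios were 1.98 for fibroblasts (1.62 to 2.44), 2.48 for lymphoma (2.03 to 3.06) and 2.01 for sarcoma (1.66 to 2.44). On deposited TPM with limma the direction was the same, but the adjusted p was 0.109, and the log2 ratios of the pairs spread to 2.15, 0.11 and 0.72 for fibroblasts, lymphoma and sarcoma. A target of 98 bases carried 0% to 67.7% of the Aen TPM in a library, and without targets under 300 bases the adjusted p was 0.0454. Over all 13 alternatives it ran from 1.21e-28 to 0.109. The related exonuclease Isg20, an interferon-induced gene, rose to 27.3 ± 4.59 CPM in 4OHT, against 11.1 ± 0.939 CPM in EtOH (1.30 ± 0.08, adjusted p = 9.78e-08).

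A RefSeq start of Aen is shown because the level of the gene differed between arms and a p53 half-site lies just after this start. The window is chr7:78895677-78895976 (RefSeq, GRCm38.p6, plus strand), with the half-site in capitals.
Aen start: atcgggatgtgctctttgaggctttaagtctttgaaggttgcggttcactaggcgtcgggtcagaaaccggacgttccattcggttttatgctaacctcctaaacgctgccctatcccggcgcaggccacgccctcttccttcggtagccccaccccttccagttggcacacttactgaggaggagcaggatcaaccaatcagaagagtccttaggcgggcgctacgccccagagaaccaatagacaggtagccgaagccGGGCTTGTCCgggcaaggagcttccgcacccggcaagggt
The half-site GGGCTTGTCC covers bases 10 to 19 after the start base. For another RefSeq start of Aen, with the window chr7:78895808-78896107, the same half-site lies at bases -121 to -112. Among members not called higher, Ei24 has GGGCATGCCC at bases -10 to -1 and Ccng1 has GGGCAAGCCT at bases -185 to -176. Windows were available for 7 of the 10 members, and those of Gdf15, Eda2r and Phlda3 held none of the 5 motifs. Half-sites thus stood at starts of genes that rose, that fell and that did not pass.

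Zmat3 encodes a zinc finger protein that binds RNA and affects its splicing and stability. It lies at chr3:32334792-32366014 on the minus strand. It had 6.65, 7.18 and 5.71 CPM in the 4OHT libraries labelled fibroblasts, lymphoma and sarcoma, against 4.63, 5.30 and 4.33 CPM in the EtOH libraries. The arms did not overlap, though the lowest 4OHT and the highest EtOH value were close. Means were 6.51 ± 0.745 CPM in 4OHT and 4.75 ± 0.497 CPM in EtOH, 1.37-fold (log2 fold change 0.45 ± 0.10, adjusted p = 0.00220). Pair ratios were 1.43 (1.15 to 1.80), 1.35 (1.09 to 1.68) and 1.32 (1.05 to 1.65) for fibroblasts, lymphoma and sarcoma, each with its interval above 1. The call was lost with DESeq2 (adjusted p = 0.0608) and with limma on deposited TPM (log2 fold change 0.07, adjusted p = 0.769), and the adjusted p ran from 0.000203 to 0.784 over 13 alternatives. A target of 88 bases carried 56.9% to 82.1% of the Zmat3 TPM, and without targets under 300 bases the gene was called again.

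Trp53inp1 encodes a stress-induced protein of nuclear bodies and autophagosomes that promotes p53 activity. It lies at chr4:11156431-11174379 on the plus strand. Levels were 5.60, 5.34 and 4.98 CPM in the 4OHT libraries labelled fibroblasts, lymphoma and sarcoma, against 3.12, 2.90 and 2.89 CPM in the EtOH libraries. Each arm was tight and the arms lay apart. Means were 5.31 ± 0.308 CPM in 4OHT and 2.97 ± 0.131 CPM in EtOH, 1.78-fold (log2 fold change 0.83 ± 0.11, adjusted p = 7.89e-05). The pair ratios were 1.79 (1.38 to 2.35), 1.84 (1.40 to 2.43) and 1.72 (1.33 to 2.24). Its relative Trp53inp2 did not pass, with 2.76 ± 0.223 CPM in 4OHT and 2.62 ± 0.184 CPM in EtOH (adjusted p = 0.653).

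Phlda3 encodes a small pleckstrin homology protein that competes with Akt for membrane lipids. It lies at chr1:135766119-135769136 on the plus strand. It had 3.94, 3.53 and 4.30 CPM in the 4OHT libraries labelled fibroblasts, lymphoma and sarcoma, against 3.58, 3.31 and 4.86 CPM in the EtOH libraries. Both libraries labelled sarcoma were highest and both labelled lymphoma lowest. Counting error alone gives an SD of 0.375 CPM in 4OHT and 0.349 CPM in EtOH. This order is therefore not read as an effect of the label. Means were 3.92 ± 0.383 CPM in 4OHT and 3.92 ± 0.828 CPM in EtOH (log2 fold change 0.00 ± 0.12, adjusted p = 0.986). The pair ratios were 1.10 (0.835 to 1.45), 1.07 (0.796 to 1.43) and 0.885 (0.696 to 1.12), and each interval spans 1.

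Ccng1 encodes cyclin G1, which brings the phosphatase PP2A to Mdm2 and so acts on Mdm2 itself. It lies at chr11:40748552-40755311 on the minus strand. It had 22.2, 22.0 and 21.3 CPM in the 4OHT libraries labelled fibroblasts, lymphoma and sarcoma, against 23.9, 24.1 and 25.0 CPM in the EtOH libraries. It was the member that fell: every 4OHT value was below every EtOH value, by a small margin. Means were 21.8 ± 0.486 CPM in 4OHT and 24.4 ± 0.592 CPM in EtOH, 0.895-fold (log2 fold change -0.16 ± 0.06, adjusted p = 0.0353). The pair ratios were 0.927 (0.831 to 1.03) for fibroblasts, 0.914 (0.818 to 1.02) for lymphoma and 0.850 (0.765 to 0.943) for sarcoma, so the interval excluded 1 in the sarcoma pair alone. The call was lost without the lymphoma pair (adjusted p = 0.111), without the sarcoma pair (adjusted p = 0.136) and with DESeq2 (adjusted p = 0.248), and the adjusted p ran from 0.0170 to 0.400 over 13 alternatives. Cyclin G2, encoded by Ccng2, fell further, to 44.7 ± 0.863 CPM in 4OHT, against 59.3 ± 0.849 CPM in EtOH (-0.41 ± 0.04, adjusted p = 1.24e-05).

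**Figure D4:**
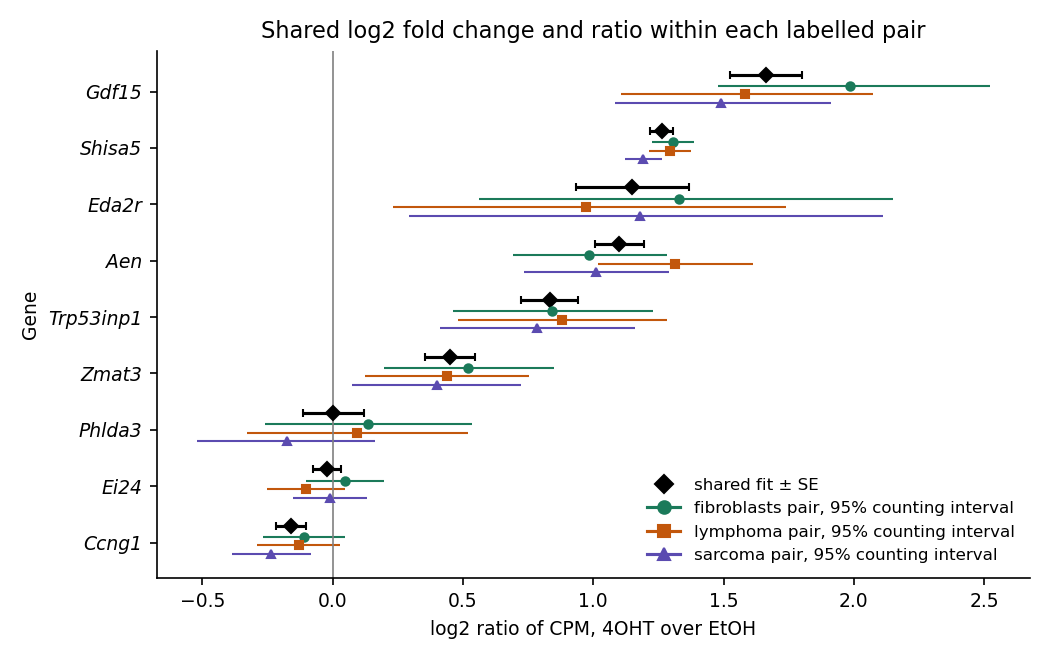
Shared log2 fold change of 4OHT over EtOH for each tested member (diamond, with its SE), above the log2 CPM ratio of each labelled pair with its 95% counting interval. Gdf15, Shisa5, Eda2r and Aen have shared values above 1, Ccng1 lies below 0, and Phlda3 and Ei24 have pairs on either side of 0.

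Levels were compared between members per length, as TPM over the 6 libraries without targets under 300 bases. Shisa5 stood first at 139 TPM (65.1 to 217). Ccng1 followed at 14.0 TPM (12.6 to 14.9) and Ei24 at 13.3 TPM (12.3 to 14.9), with ranges that overlap. Phlda3 came next at 8.03 TPM (6.64 to 9.86), and its lowest library was just above the highest of Aen. Aen at 3.93 TPM (2.28 to 6.41), Zmat3 at 3.32 TPM (2.47 to 4.66), Trp53inp1 at 3.26 TPM (2.24 to 4.52) and Gdf15 at 2.08 TPM (0.817 to 3.24) had overlapping ranges. Eda2r was lowest of the tested genes at 0.653 TPM (0.282 to 1.07), overlapping Gdf15. These ranges pool both arms. By arm means, the order among the middle genes was Aen 5.41, Trp53inp1 4.21, Zmat3 3.91 and Gdf15 3.18 TPM in the 4OHT libraries, and Zmat3 2.72, Aen 2.45, Trp53inp1 2.31 and Gdf15 0.977 TPM in the EtOH libraries. The summed level of all 10 members was 232 to 234 CPM in the 4OHT libraries and 128 to 138 CPM in the EtOH libraries, most of that gap being Shisa5.

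Other p53 targets, which include arrest, repair and death genes, split in both directions. Of 24 tested, 11 rose, 8 fell and 5 did not pass, with a median log2 fold change of 0.13. Over all tested genes 25.0% were called higher and 24.6% lower, with a median of 0.02, and the list counts that follow are set against these. The death receptor Fas rose to 22.2 ± 1.07 CPM in 4OHT, against 6.68 ± 0.971 CPM in EtOH (1.73 ± 0.08, adjusted p = 1.11e-08). The arrest gene Cdkn1a rose to 4.47 ± 0.219 CPM in 4OHT, against 1.47 ± 0.567 CPM in EtOH (1.63 ± 0.19, adjusted p = 2.51e-05). Tigar, a regulator of glycolysis, rose by 1.48 ± 0.17 (adjusted p = 3.25e-05) and the stress gene Sesn2 by 0.88 ± 0.07 (adjusted p = 1.27e-06) on the log2 scale. Pmaip1, which encodes the death protein Noxa, had 0.982 ± 0.121 CPM in 4OHT and 0.186 ± 0.143 CPM in EtOH. It is among the 11 counted as rising, but passed the count filter through the 4OHT libraries alone, so no fold is given. Sesn1, another stress gene, fell to 15.3 ± 0.304 CPM in 4OHT, against 30.1 ± 0.693 CPM in EtOH (-0.98 ± 0.06, adjusted p = 8.35e-08). Of 20 sequence relatives of the members, 10 were tested: 3 rose, 4 fell and 3 did not pass (median 0.11). Of 15 partners, 12 were tested: 5 rose, 3 fell and 4 did not pass (median 0.17). These counts are not read as a result about either list.

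**Figure D5:**
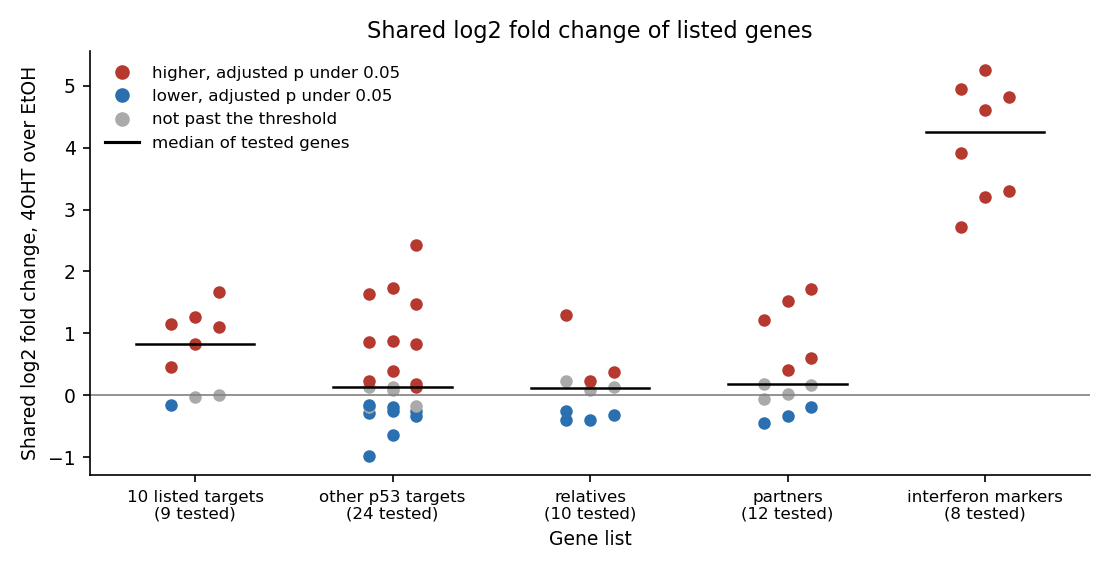
Shared log2 fold change of every tested gene in 5 lists, 1 point per gene coloured by its call (adjusted p under 0.05), with a line at the median of the tested genes. The members run from -0.16 to 1.66, while all 8 interferon markers lie well above. The other p53 targets run from -0.98 up to the point of Pmaip1, which passed the count filter through the 4OHT libraries alone.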

How the data were processed

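Per the submitters' processing notes, the authors quantified reads with kallisto 0.43.0 against GRCm38; the deposited files hold an estimated count and a TPM value per transcript. The strand setting and transcript set are not given in the sources used here. Per the labels' protocols, libraries were stranded total RNA after ribosomal depletion. The 76055 targets were joined to GENCODE M21 (GRCm38) by transcript identifier, and the 1006 without a match (0.393% to 0.410% of counts) were left out. Most protein-coding targets (94.2% of 51165) were as long as the coding sequence alone, which leaves untranslated regions uncounted. Kallisto divides reads among targets by likelihood, and targets with identical coding sequence get equal shares. Ei24 overlaps the antisense gene Gm26787, which had 20 counts in all.

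Counts were summed per gene, rounded and tested over all genes with edgeR 4.0.16 (two-sided quasi-likelihood test, TMM scaling, Benjamini-Hochberg adjustment, genes kept by filterByExpr per arm), with the cell label as block, leaving 2 residual and 9.23 prior degrees of freedom. CPM values are TMM-scaled. SE is the absolute log2 fold change divided by the square root of F. Pairs got a ratio with a 95% Clopper-Pearson interval and no test. The labels give the pairing; deviations from arm means correlated within pairs at 0.0324, 0.139 and 0.141 (fibroblasts, lymphoma, sarcoma). Alternatives were DESeq2 1.42.0, limma 3.58.1 on log2(TPM + 1) and log2(TPM + 0.1), other scalings and filters, no block, each pair left out and, added after seeing the data, TPM without targets under 300 bases. The procedure was run on simulated counts with few changed genes, a fixed dispersion and no label effect. That setting differs from these data, so the run does not measure the error rate here. R 4.3.3, Python 3.11.15, pandas 2.3.3, numpy 2.4.6, scipy 1.17.1 and matplotlib 3.10.9 were used.

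The members and gene lists were chosen with earlier results of these data known. All 10 members are named in every comparison. Of each other list, genes past the threshold with an absolute log2 fold change of at least 0.5 are named, at most 6 by size. Ccng2, Eda, Gfral, Traf6, Trp53inp2, Dsp, Jup, Pkp1, Krt5 and Krt14 were named for their tie to a member after values were seen. Atf4, other autophagy partners and cell type markers outside this rule were named to show the rest of their lists. Motif searches used exact letters on both strands.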

Additional observations from a re-analysis of the deposited data

Results flagged for a closer look

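Phlda3 and Ei24 were the members whose labelled pairs moved in opposite directions. The log2 ratio of 4OHT over EtOH for Phlda3 was 0.12 in the pair labelled fibroblasts, 0.0827 in the pair labelled lymphoma and -0.16 in the pair labelled sarcoma. For Ei24 it was 0.0471 in the pair labelled fibroblasts, -0.10 in the pair labelled lymphoma and -0.0104 in the pair labelled sarcoma. The counting interval of each of these 6 ratios spans no change. With 1 library per label and arm, the differences between pairs were not tested.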

How the results depend on the processing

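Of the 13 alternatives run on the shared fold change of each member, Gdf15, Shisa5, Eda2r and Trp53inp1 were called in 13, Aen in 11, Zmat3 in 10, Ccng1 in 7, and Phlda3 and Ei24 in 0. The number of members called lower, 1 in the report, was 0 with DESeq2 (5 higher, against 6 in the report), with limma on log2(TPM + 1), on log2(TPM + 0.1) (4 higher in both) and without targets under 300 bases (6 higher), and ranged from 0 to 1 when each labelled pair was left out. Ccng1 had adjusted p values of 0.304, 0.400 and 0.269 in those 3 limma fits. The log2 ratio of Zmat3 in the pair labelled sarcoma reversed to -0.32 with deposited TPM, against 0.36 from counts. With deposited TPM 11 further pair ratios moved by more than the spread, 3 each of Aen, Ei24 and Shisa5, 1 of Zmat3 and 1 of Gdf15, among them Aen in the lymphoma pair at 0.11 against 1.23 from counts. Without the replicate block no member's call changed, and the adjusted p of Ccng1 was 0.0221. Over all genes 3981 were higher and 3920 lower in the main test, 2541 and 2488 with DESeq2, 2221 and 1479 with limma on log2(TPM + 1), 2181 and 1389 on log2(TPM + 0.1), and 1696 and 1050 without targets under 300 bases. The causes of these differences were not tested.

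Depth limits Eda2r most, with 18 to 52 counts per library, and Perp could not be compared. The cell labels stand in for replicates, most T cell markers go against the lymphoma label, and Mdm2 RNA does not tell the arms apart as labelled. Trp53 RNA was detected in every library, though all were labelled p53-/-. Deletion and drug coincide. Values rest mostly on coding sequence, and transcript splits on a likelihood model.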

Other observations

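Markers of other cell types gave values outside the comparisons of the members. The 7 fibroblast markers tested were called lower in the 4OHT libraries, as were 24.6% of all tested genes. Their summed level was 7462 to 7623 CPM in 4OHT and 13139 to 13602 CPM in EtOH. Their log2 fold changes were -1.33 for Col3a1, -0.83 for Dcn, -0.61 for Col1a1, -0.57 for Col1a2 and -0.55 for Thy1. Krt8 averaged 2.12 ± 0.252 CPM in 4OHT and 0.349 ± 0.0774 CPM in EtOH. Pecam1 averaged 0.754 ± 0.134 CPM in 4OHT and 0.173 ± 0.0592 CPM in EtOH, and Csf1r 0.628 ± 0.130 CPM in 4OHT and 0.255 ± 0.0542 CPM in EtOH; these 3 genes passed the count filter through the 4OHT libraries alone. The summed endothelial markers lay at 0.848 to 1.23 CPM in 4OHT and 0.176 to 0.270 CPM in EtOH. The summed macrophage markers lay at 6.54 to 8.20 CPM in 4OHT and 4.59 to 5.20 CPM in EtOH. Most of that was Cd68 (6.05 to 7.30 CPM in 4OHT and 4.35 to 4.97 CPM in EtOH), while Adgre1 had 3 and Lyz2 had 5 counts in all. The T cell list summed to 3.72 to 4.73 CPM in 4OHT and 1.96 to 2.26 CPM in EtOH, nearly all of it Lck (log2 fold change 0.96), and the skeletal muscle list to 0.204 to 0.413 CPM in 4OHT and 0.101 to 0.159 CPM in EtOH. The part of any of these in the members' values was not tested.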
